A study of Mus musculus with 6 samples.

Results

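The 9 genes described here, Hoxa2, Hoxa3, Hoxa4, Hoxa5, Hoxa6, Hoxa7, Hoxa9, Hoxa10 and Hoxa11, belong to the Hoxa homeobox cluster of mouse chromosome 6 and are 9 of the 55334 gene IDs in the deposited count table. They were chosen by symbol, with their levels in JAG2KO and Scramble tumour cells already known, so their differences between those groups are given as a description and without a p-value. Hoxa13, at the 5′ end of the cluster, is no member and is described beside them.

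The RNA came from Lewis lung carcinoma, a transplantable mouse lung tumour line, that carried green fluorescent protein (GFP). The JAG2KO group held a guide RNA against Jag2, a gene for a ligand of the Notch receptors, and the Scramble group held a scrambled guide. Both were grown as tumours in the flank of mice, dissociated, and sorted for GFP-positive cells that lacked CD45, a leukocyte surface protein, and excluded the dead-cell dye DAPI. Each group had 3 polyA libraries, called here by their column names: JagKO2, JagKO3 and JagKO4 for JAG2KO, and Scramble1, Scramble2 and Scramble3 for Scramble. The labels give neither the age nor the strain of the mice, do not say whether the JAG2KO cells were 1 clone or a mixed population, and do not state that the libraries are from different mice, so the spread between libraries may be partly technical.

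Libraries held 37036772 to 43923565 counts, at which 3 counts were worth 0.068 to 0.0811 CPM (counts scaled to a common library size). Jag2 itself measured 0.514, 0.799 and 1.11 CPM in JagKO2, JagKO3 and JagKO4, against 1.52, 1.101 and 1.02 CPM in Scramble1, Scramble2 and Scramble3. The groups overlapped for this gene (edgeR adjusted p = 0.318), and an edited gene can still be transcribed, so its RNA neither checks nor contradicts the labels. The labels call the cells lung cells, but of 10 lung epithelium markers the defining genes Nkx2-1 and Sftpb were at 0 in all libraries, Sftpc had 2 counts in JAG2KO and 0 in Scramble, and Scgb1a1 had 0 in JAG2KO and 3 in Scramble. Simple epithelial keratins of the same list were expressed: Krt18 averaged 306.7 ± 26.4 CPM in JAG2KO and 268 ± 7.87 CPM in Scramble (SD, n = 3 each; edgeR adjusted p = 0.0637, not called). Krt8 averaged 4.13 ± 0.84 CPM in JAG2KO and 124 ± 4.60 CPM in Scramble (SD, n = 3 each; edgeR adjusted p = 1.72e-10). Of the 6 markers tested, 0 were higher in JAG2KO and 2, Krt8 and Krt19, lower, against 11.8% and 12.5% of all tested genes.

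Hox genes encode transcription factors that bind DNA through a homeodomain and tell cells where along the body axis they lie. In each cluster the genes stand in the order in which they are used: those at the 3′ end, such as Hoxa2 and Hoxa3, act early and towards the head, and those at the 5′ end, such as Hoxa11 and Hoxa13, act late, towards the tail and the ends of the limbs. MLL-type complexes keep Hox genes active and Polycomb complexes keep them silent, often over several neighbouring genes at once.

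On GRCm38, with GENCODE M21 gene models, all 9 members lie on the minus strand of chromosome 6, within the 98.5 kb from Hoxa2 to Hoxa13. From the 3′ to the 5′ end of the cluster they are Hoxa2 (ENSMUSG00000014704.10) at chr6:52162417-52164831, Hoxa3 (ENSMUSG00000079560.13) at chr6:52169062-52213336, Hoxa4 (ENSMUSG00000000942.10) at chr6:52189671-52191753, Hoxa5 (ENSMUSG00000038253.6) at chr6:52201754-52204587 and Hoxa6 (ENSMUSG00000043219.9) at chr6:52206288-52208722. They go on with Hoxa7 (ENSMUSG00000038236.8) at chr6:52214491-52221854, Hoxa9 (ENSMUSG00000038227.15) at chr6:52223100-52231089, Hoxa10 (ENSMUSG00000000938.11) at chr6:52231197-52240854 and Hoxa11 (ENSMUSG00000038210.10) at chr6:52242106-52245810.

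The start regions of 4 Hoxa genes are shown because the difference between the groups changed sign between Hoxa10 and Hoxa11, next to each other on the chromosome, and because Hoxa2 and Hoxa5 stand for the anterior and middle genes that were higher in JAG2KO. Each is 300 bases, from 250 bases before to 50 bases after the RefSeq transcript start on GRCm38, on the minus strand, 5′ to 3′. Capitals mark matches on either strand to the motifs searched: TGATTNAT for Hox with its partner Pbx, TGGGAA for Rbpj, the DNA-binding factor of Notch signalling, TTTATG for Cdx, a direct repeat of AGGTCA with 5 bases between for retinoic acid receptors, and CCCTC, a short stretch of the CTCF motif.
Hoxa2, chr6:52164782-52165081: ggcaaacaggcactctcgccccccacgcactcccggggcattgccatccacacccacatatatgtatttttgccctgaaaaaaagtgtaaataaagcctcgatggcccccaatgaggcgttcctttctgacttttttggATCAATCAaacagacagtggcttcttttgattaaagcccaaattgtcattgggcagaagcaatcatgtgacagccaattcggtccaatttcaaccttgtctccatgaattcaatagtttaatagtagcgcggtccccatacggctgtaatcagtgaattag
Hoxa5, chr6:52204538-52204837: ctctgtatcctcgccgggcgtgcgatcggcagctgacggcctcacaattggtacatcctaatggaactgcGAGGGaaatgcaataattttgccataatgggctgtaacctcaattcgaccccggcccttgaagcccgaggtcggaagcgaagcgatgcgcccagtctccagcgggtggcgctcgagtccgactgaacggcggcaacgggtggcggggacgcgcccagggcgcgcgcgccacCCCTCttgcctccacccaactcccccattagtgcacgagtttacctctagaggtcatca
Hoxa10, chr6:52240805-52241104: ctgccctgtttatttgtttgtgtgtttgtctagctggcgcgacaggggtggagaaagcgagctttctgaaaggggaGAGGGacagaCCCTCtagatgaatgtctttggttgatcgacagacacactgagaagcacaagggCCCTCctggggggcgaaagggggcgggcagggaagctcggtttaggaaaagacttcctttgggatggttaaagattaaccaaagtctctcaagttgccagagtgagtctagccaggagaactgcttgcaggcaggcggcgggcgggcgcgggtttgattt
Hoxa11, chr6:52245761-52246060: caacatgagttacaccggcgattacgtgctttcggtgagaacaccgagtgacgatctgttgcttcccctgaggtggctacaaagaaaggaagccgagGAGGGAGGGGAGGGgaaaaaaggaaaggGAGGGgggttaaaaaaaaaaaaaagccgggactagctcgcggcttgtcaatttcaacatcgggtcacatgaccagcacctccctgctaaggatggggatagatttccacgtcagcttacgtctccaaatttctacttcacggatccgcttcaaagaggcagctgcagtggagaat

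RefSeq promoters were found for 8 of the 9 genes, with a pair of starts for Hoxa10 and none in the table for Hoxa4. The Hox and Pbx motif was found in 1 of the 8, Hoxa2, and in 3.22% of all 32851 promoters of that length. The Rbpj motif stood in 3 of the 8 (Hoxa3, Hoxa6 and Hoxa9), against 25.6% of all promoters, and the Cdx motif in 1 of the 8 (Hoxa7), against 11.9%. CCCTC, whose matches adjoin or overlap each other in Hoxa11, was found in 7 of the 8 and in 66% of all promoters, and the retinoic acid repeat in 0 of the 8 and 0.00913% of all. The Hoxa11 window held 15 CpG dinucleotides and the printed Hoxa10 window 12, against 29 in Hoxa5, 9 in Hoxa2 and a median of 7 over all promoters. These matches describe letters and were not tied to binding.

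The cluster was divided in the JAG2KO cells. From Hoxa2 to Hoxa10 the members were 1.45-fold to 2.69-fold higher than in Scramble, and Hoxa11, the gene after Hoxa10, was almost silent in JAG2KO while it was among the better expressed members in Scramble. In the edgeR fit over all genes, 7 of the 9 members passed the threshold of adjusted p under 0.05 as higher, 1 as lower and 1 did not. In that fit 11.8% of all tested genes were called higher, 12.5% lower and 24.3% either way. All 9 members passed the count filter and were tested. The libraries of the groups lay wholly apart for 8 of the 9 members and for 40.3% of tested genes. Nothing is read from these counts, since the members were chosen on this difference. The median log2 fold change was 1.08 over the members and 0.00 over all tested genes.

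**Figure D1:**
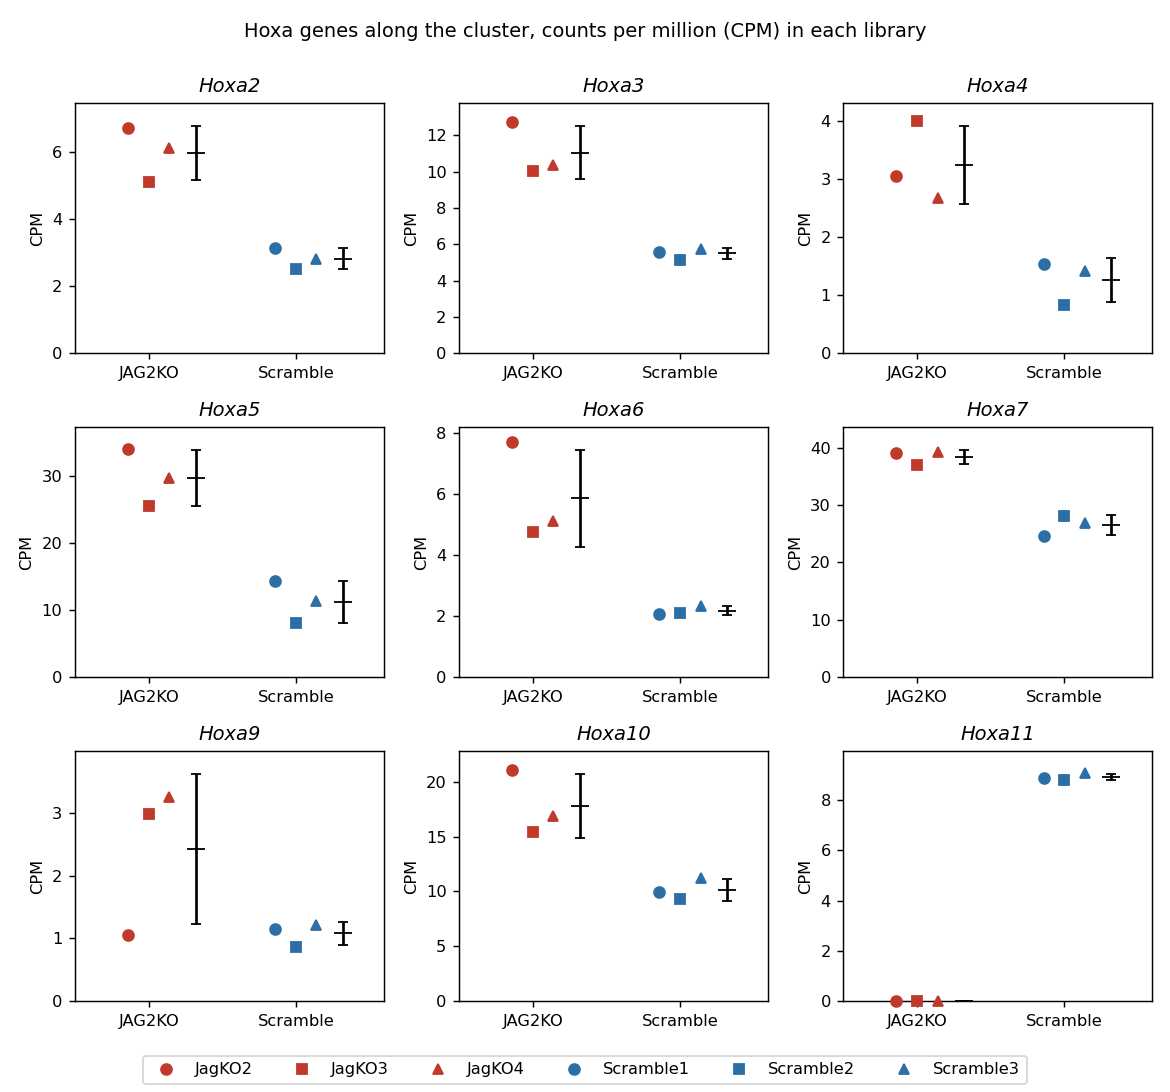
CPM in each of the 6 libraries for the 9 Hoxa genes, in cluster order, on linear axes from 0; JAG2KO libraries are red and stand left of the blue Scramble libraries, and the black marks give the mean and SD of 3 libraries. For 8 of the genes the red and blue points do not overlap, Hoxa9 being the exception, and Hoxa11 is the gene with its JAG2KO points at or next to 0.

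Hoxa2, which patterns the hindbrain and the second pharyngeal arch, measured 6.71, 5.11 and 6.12 CPM in JagKO2, JagKO3 and JagKO4, against 3.13, 2.501 and 2.83 CPM in Scramble1, Scramble2 and Scramble3. Every JAG2KO library was above every Scramble library, and the log2 fold change was 1.08 (SE 0.20). Hoxa3, required for the thymus and parathyroid glands, measured 12.8, 10.04 and 10.4 CPM in the JAG2KO libraries in the same order, against 5.599, 5.16 and 5.75 CPM in the Scramble libraries. The groups again lay apart, with a log2 fold change of 1.005 (SE 0.15). Hoxa3 also has a long annotated form whose exons overlap those of 5 other genes (Hoxaas2, Hoxaas3, Gm28308, Gm29430 and 5730596B20Rik), and 72.9% of its exonic bases were free of any other gene.

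Among the members that were higher, the middle genes had the largest fold changes, within their SEs of each other. Hoxa4, a gene of neck vertebra identity, measured 3.06, 3.99 and 2.68 CPM in JagKO2, JagKO3 and JagKO4 and 1.54, 0.826 and 1.43 CPM in Scramble1, Scramble2 and Scramble3. Its log2 fold change was 1.36 (SE 0.30), with no overlap of the groups. Hoxa5, which the developing lung and airway need, measured 33.9, 25.5 and 29.6 CPM in the JAG2KO libraries and 14.3, 8.03 and 11.3 CPM in the Scramble libraries. Its groups lay apart although Scramble varied by 27.9% of its mean, and the log2 fold change was 1.40 (SE 0.18). Hoxa6, a gene of trunk vertebra patterning, measured 7.68, 4.74 and 5.13 CPM in the JAG2KO libraries, with JagKO2 well above the other two, and 2.09, 2.09 and 2.34 CPM in the Scramble libraries. Its log2 fold change, 1.43 (SE 0.23), was the highest among the members.

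Towards the 5′ end the increases were smaller or less even. Hoxa7, active in the trunk and in blood progenitors, measured 39.1, 37.03 and 39.2 CPM in JagKO2, JagKO3 and JagKO4, against 24.6, 28.1 and 26.9 CPM in Scramble1, Scramble2 and Scramble3. It had the narrowest spread of the members in JAG2KO, 3.17% of its mean, and the smallest log2 fold change of those that were higher, 0.54 (SE 0.08). Hoxa9, a regulator of blood stem cells and a leukaemia oncogene, was the member whose groups overlapped. It measured 1.05 CPM in JagKO2, within the Scramble range of 0.872 to 1.22 CPM, but 2.98 CPM in JagKO3 and 3.26 CPM in JagKO4. Its log2 fold change was 1.17 (SE 0.40) with all libraries and 1.53 without JagKO2. Hoxa10, needed in the uterus for implantation, measured 21.1, 15.4 and 16.9 CPM in the JAG2KO libraries and 9.93, 9.27 and 11.2 CPM in the Scramble libraries. The groups lay apart, with a log2 fold change of 0.81 (SE 0.14).

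Hoxa11, which with its paralogs shapes the forearm, kidney and uterus, went the other way. It had 1, 0 and 0 counts in JagKO2, JagKO3 and JagKO4, or 0.027, 0 and 0 CPM, against 392, 384 and 356 counts in Scramble1, Scramble2 and Scramble3, or 8.89, 8.81 and 9.06 CPM. In Scramble its SD was the smallest of the members, at 1.44% of its mean. That is less than counting error alone would be expected to give at these counts, so no trait of the gene is read from it. The ratio of Scramble to JAG2KO counts was 1051 (95% counting interval 188 to 41530), which covers counting error only. It was 664.5 (119 to 26270) without JagKO4, and without JagKO2, which held the 1 count, the level was at least 240.3-fold lower in JAG2KO, taking 3 counts over that group as the limit. Its annotated 3′ end lies 1251 bases from the start of Hoxa10, which was higher in JAG2KO.

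Hoxa11os, the transcript antisense to Hoxa11, was low in the same libraries. It had 7, 1 and 0 counts in JagKO2, JagKO3 and JagKO4, against 70, 76 and 75 in Scramble1, Scramble2 and Scramble3. It fell by 4.60 in log2 units (SE 0.71; adjusted p = 0.000636 by edgeR). The ratio of Scramble to JAG2KO counts was 25.6 (95% counting interval 12.8 to 60.1) with all libraries, 16.2 (8.09 to 38.0) without JagKO4 and 141 (25.0 to 5584) without JagKO2. The pair share 800 exonic bases, 35% of those of Hoxa11, and no source used here gives the strand setting of the counting, so reads of one cannot be fully told apart from reads of the other.

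**Figure D2:**
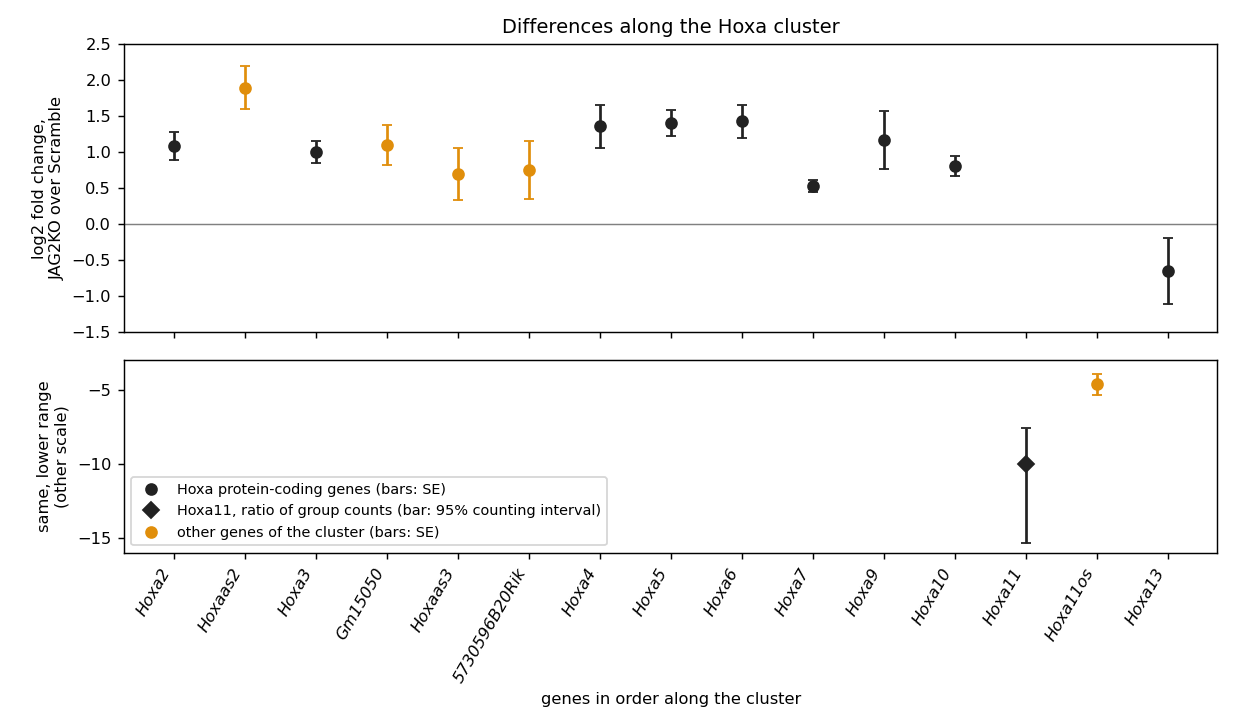
Log2 fold change of JAG2KO over Scramble for tested genes from Hoxa2 to Hoxa13 along the chromosome, with SE bars; Hoxa11 is the ratio of group counts with its 95% counting interval, and the lower panel has another scale. Values are above 0 from Hoxa2 to Hoxa10 and below 0 from Hoxa11 on, and the Hoxa13 value (-0.65, SE 0.45) did not pass the threshold.

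Hoxa13 and the antisense transcripts were not used to choose the members. Hoxa13, the 5′-most gene, which shapes the digits and genital tract, measured 0.676, 0.453 and 1.32 CPM in JagKO2, JagKO3 and JagKO4 and 1.86, 1.06 and 0.942 CPM in the Scramble libraries. Its groups overlapped and a difference was not detectable at this depth (edgeR adjusted p = 0.336). Hoxaas2, an antisense RNA that starts between Hoxa2 and Hoxa3 and runs into Hoxa3, rose to 6.27, 3.65 and 3.23 CPM in JagKO2, JagKO3 and JagKO4. It measured 1.36, 1.19 and 0.967 CPM in the Scramble libraries (log2 fold change 1.89, SE 0.30, adjusted p = 0.00079 by edgeR). Hoxaas2 shares 503 exonic bases, 15% of its own, with Hoxa3, and Hoxaas3 shares 586 with Hoxa7. With the strand setting unknown, their reads cannot be fully told apart from those of the members. Gm15050, an antisense model within Hoxa3, rose by 1.099 (adjusted p = 0.0142 by edgeR), and Hoxaas3 had a log2 fold change of 0.70 that did not pass (edgeR adjusted p = 0.184). The Gm15050 call ended without JagKO3 or Scramble2. Of the 25 genes annotated from Hoxa2 to Hoxa13, members included, 15 were tested, of which 9 were higher and 2 lower. The members themselves gave 7 of the higher calls and 1 of the lower. The other genes called were Hoxaas2 and Gm15050, higher, and Hoxa11os, lower. Over all tested genes 11.8% were called higher and 12.5% lower. Hottip, the non-coding RNA beyond Hoxa13, and Mir196b, within the annotated Hoxa9 gene, were listed at 0 in every library. All 85 bases of Mir196b lie in Hoxa9 exons on the same strand, where reads may be lost or shared. Its 0 in these polyA libraries is therefore no measure of its level.

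Outside the span from Hoxa2 to Hoxa13 the difference did not continue evenly. Hotairm1, a non-coding RNA on the Hoxa2 side, rose by 1.22 in log2 units (SE 0.39; adjusted p = 0.0383 by edgeR), a call that ended without any one of JagKO3, JagKO4, Scramble1 and Scramble3. Skap2, an adaptor protein gene farther out on that side, measured 95.4, 87.0 and 92.6 CPM in JagKO2, JagKO3 and JagKO4 and 91.3, 84.9 and 85.3 CPM in the Scramble libraries, which overlap (edgeR adjusted p = 0.47). Halr1, a non-coding RNA between Skap2 and Hotairm1, measured 0.243 to 0.854 CPM in JAG2KO and 0.153 to 1.29 CPM in Scramble. On the Hoxa13 side Evx1, a homeobox gene, was listed at 0 throughout, and Hibadh, an enzyme gene of valine breakdown, fell by 0.31 in log2 units (SE 0.07; adjusted p = 0.00836 by edgeR). Of 13 tested genes in the flanks of 1 Mb, 2 were higher and 3 lower. The others called were Nfe2l3, a stress-responsive transcription factor gene (log2 fold change 1.90, edgeR adjusted p = 0.00962), Cbx3, a heterochromatin protein gene (-0.27, edgeR adjusted p = 0.0125), and Jazf1, a zinc finger gene (-3.26, edgeR adjusted p = 0.00349). The calls of Cbx3 and Hibadh ended without Scramble2, and that of Cbx3 also without Scramble1. Over chromosome 6, 98 of 813 tested genes were higher and 188 lower.

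**Figure D3:**
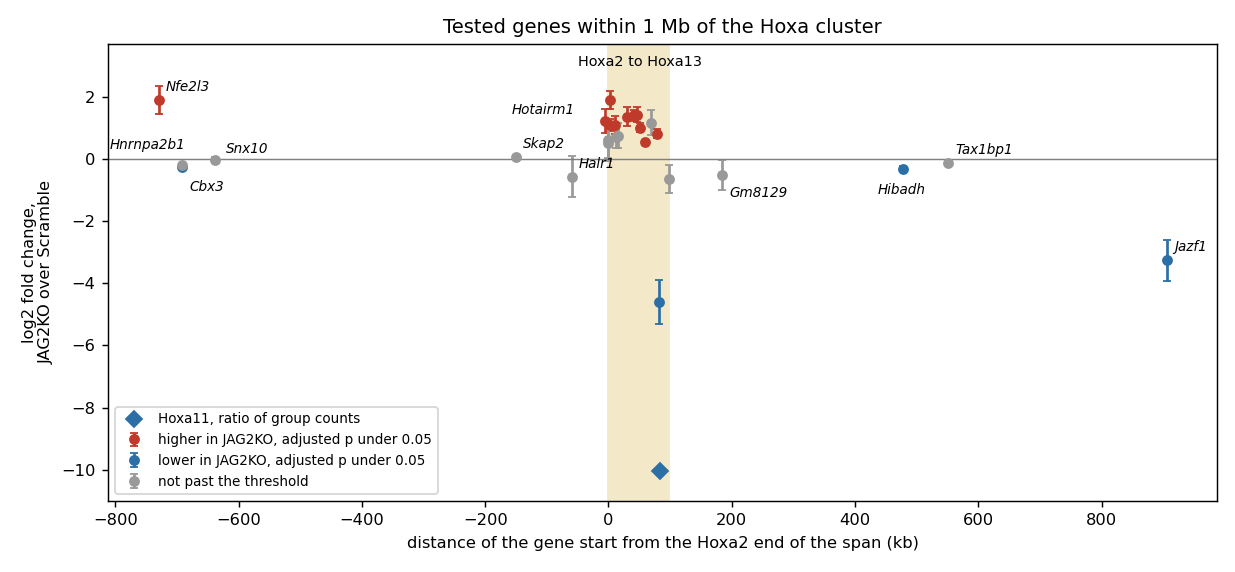
Log2 fold change of JAG2KO over Scramble, with SE, for each tested gene within 1 Mb of the span from Hoxa2 to Hoxa13, against the distance of its start from the Hoxa2 end in kb (Hoxa11 as the ratio of group counts); the shaded band is that span of 98.5 kb. The genes above 0 with a called increase lie in the band, other than Hotairm1 and Nfe2l3, and the lowest values are those of Hoxa11 and Hoxa11os at the far side of the band and Jazf1.

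Levels were compared between members per exonic length, as CPM per kilobase of exon (RPKM). In JAG2KO the order of mean level was Hoxa5 (15.8 ± 2.24 RPKM), Hoxa7 (13.4 ± 0.424), Hoxa6 (6.69 ± 1.83), Hoxa10 (5.45 ± 0.897), Hoxa2 (3.37 ± 0.454), Hoxa4 (2.03 ± 0.425), Hoxa3 (1.84 ± 0.247), Hoxa9 (0.436 ± 0.215) and Hoxa11 (0.00394 ± 0.00683; SD, n = 3). The library values of Hoxa5 and Hoxa7, of Hoxa6 and Hoxa10, and of Hoxa4 and Hoxa3 overlapped, so those neighbours in the order did not differ beyond their spread. In Scramble the order was Hoxa7 (9.23 ± 0.613 RPKM), Hoxa5 (5.97 ± 1.67), Hoxa11 (3.90 ± 0.056), Hoxa10 (3.10 ± 0.30), Hoxa6 (2.49 ± 0.168), Hoxa2 (1.59 ± 0.177), Hoxa3 (0.915 ± 0.0508), Hoxa4 (0.793 ± 0.241) and Hoxa9 (0.194 ± 0.0333; SD, n = 3), and of these neighbours Hoxa3 and Hoxa4 overlapped. Hoxa11 was thus the third of 9 in Scramble and the last in JAG2KO. Divided by the length of its exonic bases free of other genes alone, with all its counts kept, the Hoxa11 level in Scramble was 5.998 RPKM, an upper limit. Together the members took 0.0104% to 0.0125% of all counts in JAG2KO libraries and 0.00651% to 0.00718% in Scramble libraries.

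Within groups the members other than Hoxa11 tended to share their high and low libraries. JagKO2 was the highest JAG2KO library for 5 of these 8 members and JagKO3 the lowest for 6. Scramble2 was the lowest Scramble library for 6 of the 8. The 10 fibroblast and pericyte markers summed to 9793 CPM in JagKO2, 6630 in JagKO3 and 6210 in JagKO4. Their sums were 4919 CPM in Scramble1, 4931 in Scramble2 and 4863 in Scramble3. JagKO2 had the highest sum in JAG2KO and JagKO4 the lowest. The Scramble sums lay close together, and nothing is read from their order. By single marker, JagKO2 was the highest JAG2KO library for all of them. JagKO3 was the lowest for Pdgfra, Pdgfrb, Postn, Fap and Rgs5, and JagKO4 for Col1a1, Col1a2, Col3a1, Dcn and Lum. Scramble2 was the lowest Scramble library for Col1a1, Col1a2, Postn, Fap and Rgs5, and Scramble3 for the others. Most of each sum was Col3a1 alone, at 7221, 4986 and 4661 CPM in JagKO2, JagKO3 and JagKO4. Col3a1 measured 3585, 3750 and 3512 CPM in Scramble1, Scramble2 and Scramble3. Of the 10 markers, 6 were higher in JAG2KO and 1 lower, where 11.8% of all tested genes were called higher and 12.5% lower. No marker list was tested against these shares. The lower marker was Fap, with a mean of 3.61 CPM in JAG2KO and 19.0 CPM in Scramble. Endothelial markers summed to 59.4 CPM in JagKO2, 47.6 CPM in JagKO3 and 69.7 CPM in JagKO4, the highest, against 32.3 to 37.3 CPM in the Scramble libraries, with 5 of 10 higher and 0 lower, and macrophage and leukocyte markers to 73.2 to 91.9 CPM in JAG2KO and 39.7 to 47.6 CPM in Scramble, with 3 of 8 tested higher and 0 lower. Blood stem and myeloid progenitor markers summed to 42.9 to 58.0 CPM in JAG2KO and 81.2 to 87.4 CPM in Scramble, with 0 of 5 tested higher and 2 lower. Lyz2 was the largest part of the macrophage sum, and Gata2 and Cd34, the genes that were lower, made up most of the progenitor sum. None of the fibroblast, endothelial, macrophage or progenitor markers was at 0 in all libraries. The cells had been sorted as GFP-positive and CD45-negative, a gate that selects against host cells. How fully it removed them was not measured. Fibroblasts and endothelial cells can express Hoxa genes, and in bulk RNA more cells of a type and more RNA per cell cannot be told apart; the part of these cells in the higher Hoxa2 to Hoxa10 levels was not tested.

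The other Hox clusters did not share one pattern with Hoxa (the Hoxa members' own values are given above, and no test of the difference between clusters was made). For comparison, 11.8% of all tested genes were called higher and 12.5% lower, and no cluster was tested against those shares. In the Hoxb cluster on the whole the genes were lower: 0 of 8 tested genes were higher, 6 lower and 2 did not pass. The lower calls in Hoxb numbered 4 without JagKO4 or without Scramble1. Hoxb7, a trunk gene, measured 0.784, 0.426 and 0.577 CPM in JagKO2, JagKO3 and JagKO4 and 6.01, 5.05 and 4.33 CPM in the Scramble libraries (log2 fold change -3.10, SE 0.29, edgeR adjusted p = 1.32e-05). Hoxb5 had 1, 1 and 0 counts in JagKO2, JagKO3 and JagKO4, against 60, 64 and 49 counts in Scramble1, Scramble2 and Scramble3. These were 0.027, 0.027 and 0 CPM against 1.36, 1.47 and 1.25 CPM (edgeR adjusted p = 5.43e-05). Hoxb5 was thus, like Hoxa11, almost silent in JAG2KO. Hoxb8 fell by 2.04 in log2 units (adjusted p by edgeR = 0.00227). In the Hoxd cluster 1 of 6 tested genes was higher and 0 lower. That gene was Hoxd4 (log2 fold change 0.85, edgeR adjusted p = 0.0292), whose call ended without JagKO2, JagKO4, Scramble2 or Scramble3. Hoxd3 had a log2 fold change of 0.74 (SE 0.35) and did not pass (edgeR adjusted p = 0.15). Hoxd9, the paralog of Hoxa9, measured 31.9 to 41.7 CPM in JAG2KO and 25.7 to 31.1 CPM in Scramble and did not pass. For Hoxd3, Hoxd4 and Hoxd9 every JAG2KO library was above every Scramble library, and for the other tested Hoxd genes the groups overlapped. In the Hoxc cluster 0 of 6 tested genes were higher and 1 lower, Hoxc4 (log2 fold change -2.23, edgeR adjusted p = 0.016), which lost its call without JagKO3, JagKO4, Scramble1 or Scramble2. The paralogs of Hoxa11 were near silent in both groups: Hoxd11 measured 0.208 to 0.586 CPM in JAG2KO and 0.227 to 0.39 CPM in Scramble, and Hoxc11 had 5 counts over JAG2KO and 8 over Scramble.

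**Figure D4:**
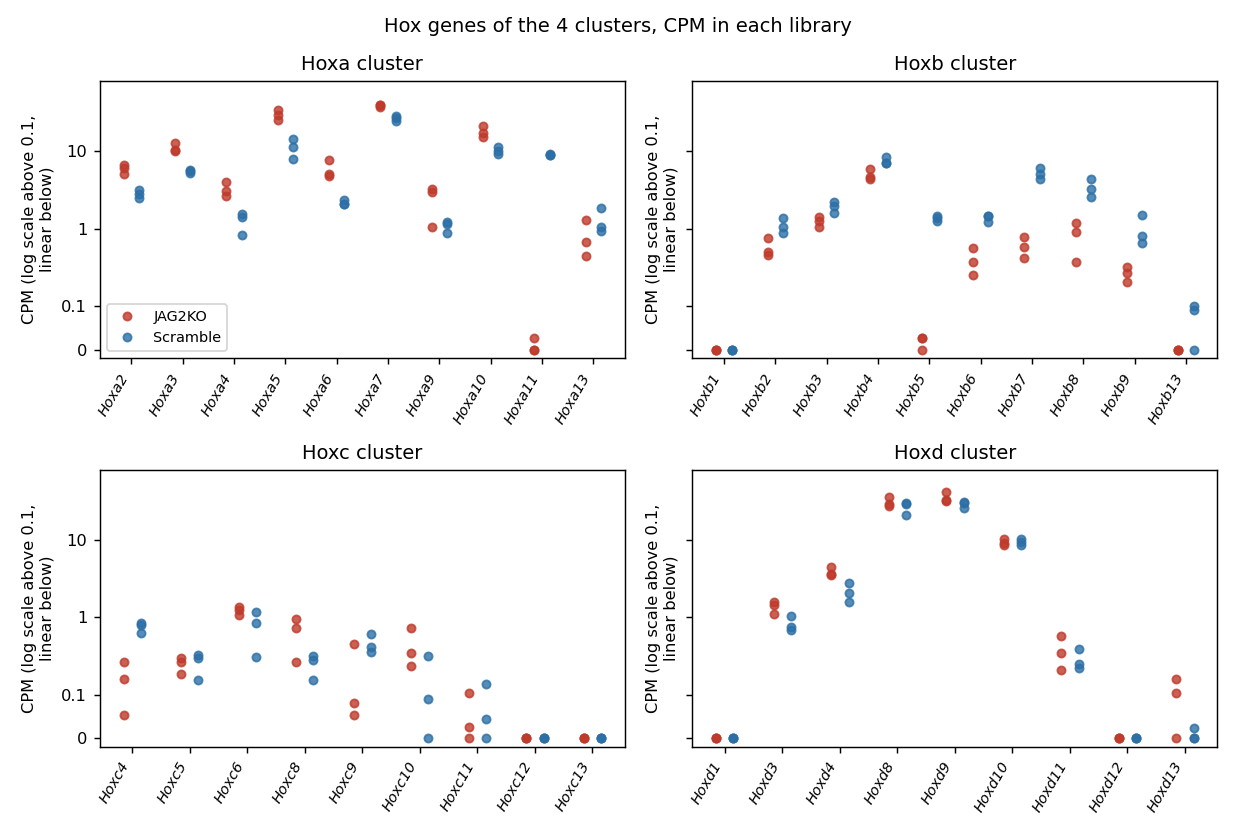
CPM of each Hox gene in each library, by cluster, with JAG2KO (red) left of Scramble (blue); the axis is logarithmic above 0.1 and linear below. In the Hoxa panel red points lie above blue ones up to Hoxa10, other than 1 Hoxa9 library, and drop to 0 or next to it at Hoxa11, in the Hoxb panel they lie below from Hoxb2 to Hoxb9, and in the Hoxd panel Hoxd8, Hoxd9 and Hoxd10 stay between 20.9 and 41.7 or 8.55 and 10.3 CPM in both groups. Red points also lie above blue ones for Hoxd3, Hoxd4 and Hoxd9.

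Most lists of partners and regulators of Hox genes held called genes in both directions, the list of upstream regulators being the exception. Of all tested genes 11.8% were called higher and 12.5% lower, and no list was tested against that share. Among the TALE cofactors, which bind DNA together with Hox proteins, 2 of 9 tested genes were higher and 1 lower. Meis1, known as a partner of Hoxa9, measured 42.8, 39.8 and 29.6 CPM in JagKO2, JagKO3 and JagKO4 and 27.4, 29.5 and 27.4 CPM in the Scramble libraries (edgeR adjusted p = 0.0277), Meis3 rose by 0.31 and Meis2 fell by 0.45 in log2 units (adjusted p by edgeR = 0.0396 and 0.0213). Each of these 3 calls ended when 1 of several libraries was left out. Among MLL complex and other activator genes, 7 of 20 were higher and 2 lower. Aff1, an elongation factor subunit gene, and Dot1l, the histone H3 lysine methyltransferase gene that MLL fusions recruit, rose by 0.60 and 0.79 in log2 units (adjusted p by edgeR = 0.000227 and 0.000326), and Kdm6a, a demethylase gene that removes the Polycomb mark, by 0.44 (edgeR adjusted p = 0.00163). Among Polycomb genes, 3 of 31 were higher, 7 lower and 21 did not pass. Cbx7 rose to 57.4 ± 5.34 CPM in JAG2KO, against 32.6 ± 1.58 CPM in Scramble (SD, n = 3 each; edgeR adjusted p = 3.85e-05), Aebp2 rose by 0.45, and Ezh2, the methyltransferase subunit, fell by 0.48 in log2 units (adjusted p by edgeR = 0.0018 and 0.00186). Of CTCF and cohesin genes, which form boundaries in Hox clusters, 1 of 10 was higher (Nipbl, not called without Scramble3) and 1 lower (Smc1a, not called without Scramble2), and Ctcf had a log2 fold change of 0.01 (SE 0.06).

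Retinoic acid, a vitamin A product, switches on 3′ Hoxa genes during development. Of that pathway's genes 1 of 15 tested was higher and 3 lower: Crabp1, a retinoic acid binding protein gene, rose by 1.41, and Dhrs3 and Stra6, of retinoid handling, fell by 0.98 and 0.72 in log2 units (adjusted p by edgeR = 0.0014, 0.000399 and 0.00214). The third gene that was lower was Rxra, a receptor gene, which fell by 0.28 in log2 units (adjusted p by edgeR = 0.0211), and the receptor genes Rara and Rarg did not pass, with log2 fold changes of 0.18 and 0.01. Of upstream regulators of Hox genes, 1 of 4 tested was lower and 3 did not pass: Gdf11, a signal for posterior Hox genes, fell by 0.95 in log2 units (adjusted p by edgeR = 0.0058). Genes reported as Hoxa9 targets in blood cells were higher for 4 of 9 tested and lower for 0, with Id2 at 0.75, Igf1r at 0.37 and Meis1 at 0.41 in log2 units (adjusted p by edgeR = 0.00145, 0.00698 and 0.0277); 2 were higher without JagKO3 or without Scramble3.

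The genes most like the members over the 6 libraries were sought by the distance between centred log2 CPM profiles among 10766 protein-coding genes. Because Hoxa11 moved against the others, the mean profile of the 8 members with a mean CPM of at least 2 was nearly level between the groups, and its nearest genes were Yipf4, Pgrmc2, Mkrn1, Zfp983 and Btf3l4 (distances 0.0717 to 0.117), none of them called. Hoxa9 fell below that level and was left out. The mean profile without Hoxa11 as well, a choice made after its values were seen, lay nearest to Arsj, Nid2, P2rx7, F13a1 and Nlrc3 (distances 0.176 to 0.265). The log2 fold changes of these genes were 0.97 to 1.18. Hoxa11 alone lay nearest to Cadm1, Lingo3, Trim44, Ppp1r9a and Oplah (distances 1.25 to 1.83).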

How the data were processed

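RNA of 3 JAG2KO and 3 Scramble libraries was measured by polyA sequencing. The deposited values are raw read counts, whole numbers per gene and library, for 55334 Ensembl IDs. Per the submitters' processing notes, the authors used STAR (version 2.7.7a) and HTSeq (version 0.11.2). Genome build, annotation, strand setting and read filters were not given in the sources used, so reads over overlapping genes may be lost or shared. JAG2KO columns are numbered 2 to 4 where the titles run from 1 to 3, so they were used as JAG2KO libraries with no replicate number.

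Of the IDs, 55154 matched GENCODE M21 (GRCm38), which gave symbols, coordinates and exon lengths. The fit used edgeR 4.0.16 (R 4.3.3) with filterByExpr at a minimum count of 10 and a minimum total of 15, TMM factors and the quasi-likelihood test, leaving 4 residual degrees of freedom. P-values were adjusted by Benjamini-Hochberg over 16049 tested genes and called under 0.05. CPM uses TMM-scaled library sizes, and SE is the log2 fold change, without its sign, over the square root of F. P-values measure only the spread between libraries. Count ratios carry exact 95% binomial intervals. Likeness used log2(CPM + 0.1) and genes whose mean CPM reached 2. Promoter sequences are RefSeq's, on GRCm38.p6.

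The members and the gene lists were chosen with earlier results of these data known. Genes were named by rule: the members and Hoxa13, named genes from Skap2 to Hibadh, called genes within 1 Mb, up to 3 called genes of each list with the smallest p, and the 5 most alike genes. Hoxd3, Hoxd9, Hoxd11, Hoxc11, Ctcf, Rara, Rarg, Rxra, Tbx15, Shox2, the lung markers and the single fibroblast and pericyte markers were added after their values were seen. The fit was repeated with RLE factors, with library totals only, without a filter, with a filter of CPM 1 in 3 libraries, with DESeq2 1.42.0, with limma-voom (limma 3.58.1) and leaving out each library in turn. Some genes are not reported here. The procedures were tested on simulated data.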

Additional observations from a re-analysis of the deposited data

How the results depend on the processing

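The log2 fold changes of Hoxa2 to Hoxa10 stayed above 0 in all 13 fits run, from 0.49 (Hoxa7) to 1.63 (Hoxa5). The members called higher were 7 to 8 and those called lower 1 in every fit, and Hoxa9 passed without a filter, with the stricter filter, with DESeq2 or without JagKO2. The fitted fold change of Hoxa11, which had 1 count in JAG2KO, is not printed, though its call and the median over the members use that fit; its log2 ratio of counts could not be had without JagKO2. Over all genes, 2705 to 4019 were called with a library left out, against 3896 with all. Small list counts moved. With CPM of 1 in 3 libraries 0 Hoxc genes were lower and 1 limb and lung positional gene was higher. Without a filter 2 Hoxd genes and 1 TALE cofactor were higher. With DESeq2 or limma-voom 2 CTCF and cohesin genes were lower. With a library left out the higher genes numbered 0 to 1 for CTCF and cohesin, TALE cofactors, Hoxd and positional genes, 2 to 4 for Hoxa9 targets, 0 to 1 for upstream regulators and 1 to 2 for the flanks. The lower genes numbered 0 to 2 for CTCF and cohesin, 0 to 1 for TALE cofactors, Hoxc and positional genes, and 1 to 3 for MLL-type genes and the flanks. With all counts divided by the length free of other genes, the Scramble level was 1.87 RPKM for Hoxa2, 1.26 for Hoxa3, 11.6 for Hoxa7 and 5.998 for Hoxa11, upper limits that come from the shorter length. Of 465 values for 39 other named genes, 41 lost and 3 gained their call, and 2 changed sign, both of the Snx10 log2 fold change (0.067 without JagKO2 and 0.008 without Scramble2, range -0.151 to 0.067 with a library left out). The cause of these moves was not tested. No paired analysis was possible because the JAG2KO columns do not carry the replicate numbers of the titles.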

Other observations

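Transcription factors that mark limb and lung position were called in both directions: 2 of 9 tested genes were higher in JAG2KO, 1 was lower and 6 did not pass, where 24.3% of all tested genes were called. Prrx1, a limb mesenchyme homeobox gene, was the most abundant of them and measured 408.5, 376 and 380 CPM in JagKO2, JagKO3 and JagKO4, against 344, 349 and 321 CPM in Scramble1, Scramble2 and Scramble3 (edgeR adjusted p = 0.0381). En1, of the limb's ventral side, rose by 2.14 in log2 units and Tbx3 fell by 0.47 (edgeR adjusted p = 0.0156 and 0.0146). Each of the 3 calls ended without Scramble1 or without Scramble2, and that of Prrx1 without any one library. Tbx15 and Shox2 did not pass, with log2 fold changes of -0.04 (SE 0.10) and -0.11 (SE 0.10).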
